A study of Mus musculus with 4 samples.

Results

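The nuclear genes of the respiratory chain and of ATP synthase were followed in tumour-infiltrating cells of mouse melanoma. They were taken by symbol: every nuclear gene starting with Nduf, Uqcr, Cox4i, Cox5, Cox6, Cox7, Cox8 or Atp5, with Sdha, Sdhb, Sdhc, Sdhd, Cycs and Cyc1 added. This gave 94 of the 28692 genes in the files. By role they were 36 genes of complex I, 4 of complex II, 9 of complex III, cytochrome c, 19 of complex IV and 15 of ATP synthase, with 7 complex I assembly factors, the supercomplex factor Cox7a2l, and Atp5s and Atp5sl, which carry the ATP synthase name but are not subunits. Ndufa4 and Ndufa4l2 were counted with complex IV. The choice used symbols alone and no measured value.

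Complexes I to IV pass electrons from NADH and succinate to oxygen and pump protons out of the mitochondrial matrix, and ATP synthase makes ATP as the protons return. Most subunits are nuclear genes, while the mitochondrial genome encodes 13 core subunits that are assembled with them. Activated and dividing T cells are known to enlarge their mitochondria and to use glycolysis and respiration together.

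The tumours were B16-F10, a transplantable melanoma line, in C57BL/6 mice. Pmel-1 CD8 T cells, whose transgenic receptor sees gp100 of melanocytes, received a vector with either IRF4 plus GFP or only GFP and were given on day 3. On day 14 the transferred cells and the host's own CD45+ cells were sorted from both arms. The 4 libraries are therefore transferred cells of the IRF4 arm, transferred cells of the control arm, endogenous cells of the IRF4 arm and endogenous cells of the control arm, 1 each. All 4 come from tumours treated with transduced cells, the labels do not say how many mice were pooled, and the endogenous cells carry no transgene. By its title the series asks what IRF4, a transcription factor induced by receptor signalling, does for tumour control by CD8 cells.

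Unique molecular identifiers (UMIs) of each class in each library were added up and scaled to the same total in every class (CPM). The libraries held 16664323 to 94686409 UMIs, and 15132 of 17711 barcodes were kept, with median depths of 8437 to 19963 UMIs. With 1 library per group there is no replicate and no test: intervals are 95% and cover counting error only. Classes were gated on marker genes, which left 18.2% to 23.8% of kept cells unassigned. The CD8 gate held 428 transferred and 2009 endogenous cells for the IRF4 arm, and 1823 and 647 for the GFP arm. Pairs of libraries shared 0 to 18 barcodes. In the CD8 gate Ptprc was at 902.1 to 1232 CPM and Cd8a at 608.2 to 817.6 CPM, with Cd4 and Foxp3 at 0 by the gate itself. Irf4 stood at 27.2 and 23.9 CPM in transferred CD8 cells of the IRF4 and control arms and at 10.5 and 8.52 CPM in endogenous ones, and counts of 3' ends do not tell a vector transcript from the endogenous one. The 2 control-arm libraries stand apart in a haemoglobin transcript: Hbb-bs had a UMI in 35.5% of transferred and 37.7% of endogenous CD8 cells of that arm, and in 0.234% and 0.498% in the IRF4 arm, so sample handling and arm cannot be told apart.

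Some members differed by cell class. Cox6a2 and Cox6a1 encode alternative forms of the same small subunit, the one known from heart and skeletal muscle and the other from most tissues. Their coding sequences, read from the GENCODE vM21 transcripts, are shown because UMIs of the pair divided sharply by cell class. They are 294 and 339 bases long and identical at 190 of 294 aligned bases (64.6%), with no shared run longer than 12 bases. The last 240 bases of each are printed, ending with the stop codon. Capitals mark aligned bases that differ, and unaligned bases stand in lower case.
Cox6a2: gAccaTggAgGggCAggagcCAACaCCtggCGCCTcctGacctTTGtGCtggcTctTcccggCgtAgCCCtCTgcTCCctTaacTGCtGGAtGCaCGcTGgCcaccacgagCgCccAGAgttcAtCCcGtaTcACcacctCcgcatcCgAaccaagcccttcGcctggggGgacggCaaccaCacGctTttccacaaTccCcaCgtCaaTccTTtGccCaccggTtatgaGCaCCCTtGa
Cox6a1: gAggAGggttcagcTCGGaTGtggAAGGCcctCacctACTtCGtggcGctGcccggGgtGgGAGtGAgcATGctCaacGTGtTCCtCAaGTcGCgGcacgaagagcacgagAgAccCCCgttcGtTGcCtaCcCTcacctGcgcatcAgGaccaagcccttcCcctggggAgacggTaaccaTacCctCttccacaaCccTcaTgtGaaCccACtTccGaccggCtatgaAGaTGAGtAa

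Cox6a2 (chr7:128205435-128206387, minus strand, GRCm38) stood at 1280.2 CPM in the plasmacytoid dendritic cell gate of the endogenous IRF4-arm library and at 1644 CPM in that of the control arm. Natural killer (NK) cells came next, at 13.2 and 8.61 CPM, so the plasmacytoid gate was 97.3 and 191 times higher. These cells are the main type I interferon producers among dendritic cells. Cox6a2 was not among the 7 markers that defined the gate (Siglech, Ccr9, Klk1, Smim5, Pacsin1, Rpgrip1 and Cd300c).

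Cox6a2 UMIs were found in 71 of 74 and 135 of 143 plasmacytoid cells, which is 95.9% and 94.4%. After thinning every cell to 2000 UMIs the shares were 78.4% (67.3% to 87.1%, exact Clopper-Pearson) and 84.6% (77.6% to 90.1%). Monocytes or macrophages gave 0.221% and 0.434% after thinning and 1.21% and 2.65% before, and the source of these UMIs was not tested. Their median depths were 11610 and 14427 UMIs, against 10662 and 10954 in plasmacytoid cells. NK cells gave 0.829% and 1.07% after thinning, and in the IRF4 arm 11 of 729 cells held all 56 of their Cox6a2 UMIs. In B cells none of 119 and 1 of 484 thinned cells had a UMI, where a count of 0 allows a share of up to 2.52%. Both libraries thus show the transcript in most plasmacytoid cells and in few others.

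Of all Cox6a2 UMIs, 74.1% of 1530 and 78.3% of 3482 fell in the plasmacytoid gate of the endogenous libraries, and 18.4% and 19.1% in unassigned cells. The transferred IRF4-arm library had 46 Cox6a2 UMIs, and 39 of them came from its 1 plasmacytoid-gated cell. The transferred control-arm library had 123, with 57 in 2 such cells and 41 in unassigned cells. CD8 cells had 0.371, 0.562, 1.17 and 1.03 CPM (transferred IRF4, transferred control, endogenous IRF4, endogenous control, the order kept below for the 4 libraries).

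Cox6a1 did not share this pattern. It ranged from 137.0 to 229.7 CPM over the 7 compared classes of the endogenous IRF4-arm library and from 132.4 to 239.3 CPM in the control arm, with 187.6 and 172.5 CPM in the plasmacytoid gate. CD4 T cells were lowest in both libraries. The plasmacytoid cells therefore carried both transcripts, with more UMIs of Cox6a2, though counts of 3' ends do not compare genes by length.

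Other tissue-restricted forms were low. Cox4i2, the hypoxia-linked partner of Cox4i1, was highest in monocytes or macrophages at 10.5 and 9.69 CPM, against 0.617 and 0.838 CPM in the next classes, and 77.5% and 69.5% of its library UMIs lay there. Its share of monocyte or macrophage cells after thinning was 1.44% and 1.55%, and 5.71% and 9.17% before, against 0.0498% and 0.309% of endogenous CD8 cells before thinning. Cox7a1, a heart and muscle form, was also highest in that class at 6.29 and 8.32 CPM. Cox8b, Cox8c and Cox7b2 had 0 UMIs in all kept cells of the 4 libraries, and Ndufa4l2 had 0 in CD8 cells. The ubiquitous forms Cox4i1, Cox8a and Cox7a2 were seen in every class.

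**Figure D1:**
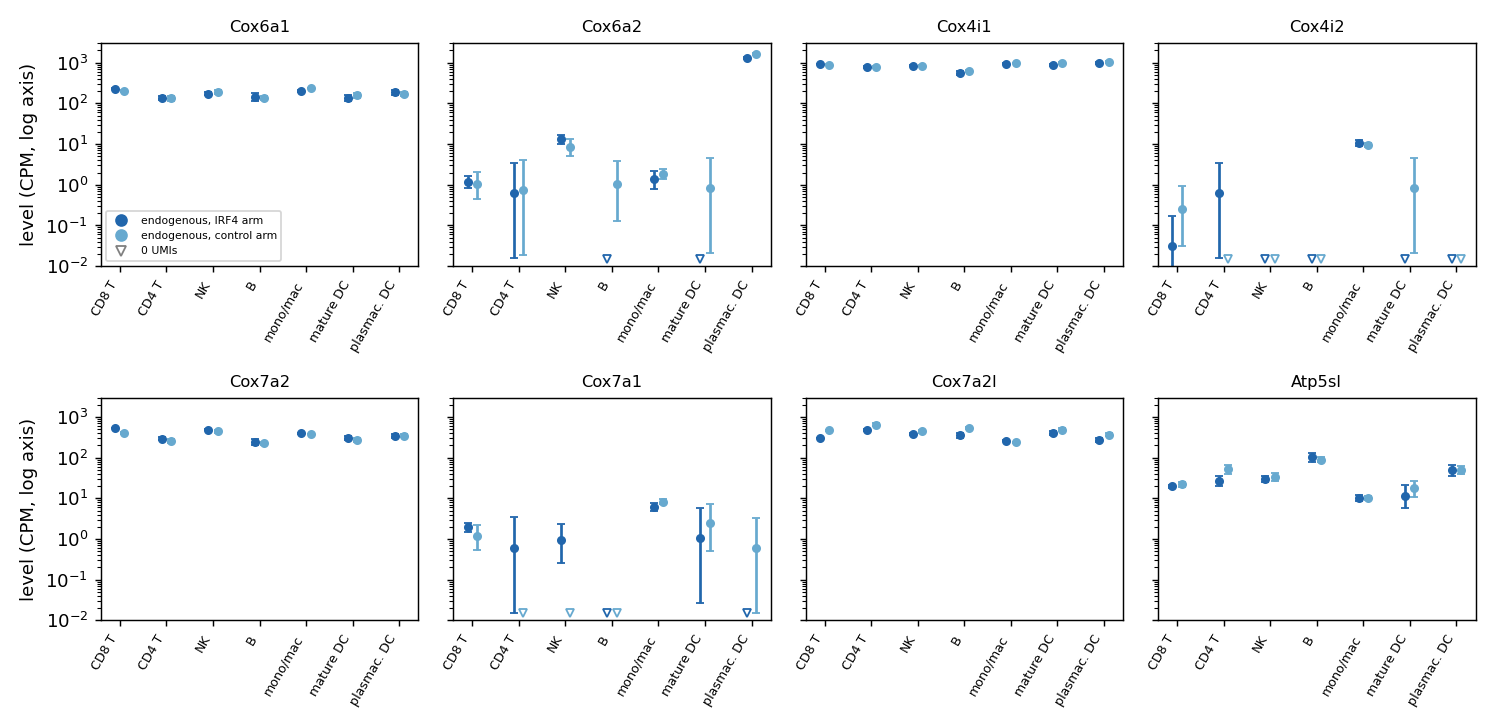
Levels (CPM, log axis, with 95% counting intervals) of 8 members in 7 gated classes of the 2 endogenous libraries (mono/mac, monocyte or macrophage; plasmac. DC, plasmacytoid dendritic cell), open triangles marking 0 UMIs and drawn at an arbitrary height. Cox6a2 reaches 1280.2 and 1644 CPM in plasmacytoid cells and at most 13.2 CPM elsewhere, while Cox6a1 stays between 132.4 and 239.3 CPM.

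Atp5sl and Cox7a2l also ran against the rest of the set. Atp5sl, which takes part in complex I assembly, was highest in B cells at 101.7 and 89.8 CPM and lowest in monocytes or macrophages at 10.2 and 10.1 CPM. Cox7a2l, counted above as the supercomplex factor, was highest in CD4 T cells at 485.0 and 653.6 CPM and lowest in monocytes or macrophages at 264.0 and 237.6 CPM. What its product does in these mice was not measured. Cycs, the electron carrier that also triggers apoptosis when released, was highest in monocytes or macrophages at 376.1 and 306.4 CPM among the 7 classes, with CD8 cells next at 375.2 and 262.6 CPM. In type 1 conventional dendritic cells, too few to rank with 36 and 73 cells, Cycs reached 671.0 and 626.8 CPM.

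Atp5g1, Atp5g2 and Atp5g3 encode the same ring subunit of ATP synthase with different import signals, and they differed by class. Atp5g3 was highest in CD8 cells, at 372.1 and 280.9 CPM, against 126.5 to 223.8 CPM in the other 6 classes. Atp5g2 was also highest there, at 670.1 and 620.1 CPM. Atp5g1 was at 370.7 and 319.8 CPM in CD8 cells and at 332.0 and 412.2 CPM in monocytes or macrophages, so its highest class differed between the libraries. Cycling ratios within CD8 cells, described further on, were 1.59, 1.44, 1.74 and 1.81 for Atp5g3 and 1.20, 1.22, 1.24 and 1.33 for Atp5g2.

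Summed over all 94 genes (the module), CD8 T cells had the highest level of the 7 classes in both endogenous libraries. The sum was 25802 CPM in the IRF4 arm (25747 to 25857) and 22271 CPM in the control arm (22166 to 22376). Plasmacytoid cells followed at 21404 and 21808 CPM, and monocytes or macrophages had 20318 and 21104 CPM, NK cells 20674 and 19539 CPM and CD4 T cells 18555 and 16783 CPM. Mature dendritic cells, at 15986 and 16418 CPM, and B cells, at 15016 and 13656 CPM, were lowest. The order differed between the libraries only in NK cells and monocytes or macrophages, which exchanged places. The first place belongs to the CD8 gate as a whole. Its non-cycling cells, defined further on, had 21271 and 19876 CPM, below plasmacytoid cells in both libraries. Other classes were not split by cycling. Ranking took at least 100 cells per library, but 50 for mature and plasmacytoid dendritic cells, neutrophils and mast cells or basophils. Type 1 conventional dendritic cells, under the minimum number of cells and not ranked, had 24266 and 22371 CPM, above CD8 cells in the control arm. Regulatory T cells, with 114 and 61 cells, were not ranked either. Their 23393 and 21866 CPM were above plasmacytoid cells in both libraries, so the place of plasmacytoid cells depends on the minimum chosen.

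By member, 30 of 86 measured genes were highest in CD8 cells in both libraries, 8 in plasmacytoid cells, 6 in monocytes or macrophages and 3 in NK cells. B cells were lowest in both libraries for 30 members and mature dendritic cells for 23. With the small gates counted too, 8 of 88 measured members were highest in CD8 cells in both libraries, 12 in type 1 conventional dendritic cells and 5 in regulatory T cells, while neutrophils were lowest for 42, B cells for 7 and mature dendritic cells for 0. No share of all genes is given beside these counts, so they describe the members alone. A member was called measured at 10 CPM or more in either group compared, and higher or lower past a ratio of 1.5 on a log2 scale with 1 CPM added.

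Against B cells, 52 of 83 members were higher in CD8 cells in both libraries and 1, Atp5sl, was lower, against 24.3% and 14.8% of all genes tested. The module ratio was 1.72 and 1.63, and the median log2 ratio of members was 0.85 and 0.78, beside 0.16 and 0.18 over all genes. Cox5a, a complex IV core-binding subunit, showed a ratio of 3.02 and 2.46, and Cycs 2.55 and 2.91. Sdha, the flavoprotein of complex II, was near equal at 0.93 and 0.99, while its partner Sdhb stood at 2.15 and 1.87.

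Against CD4 T cells, 22 of 83 members were higher in CD8 cells in both libraries, beside 12.1% of all genes, with median log2 ratios of 0.51 and 0.45. Against NK cells the count was 5 of 83 (Ndufc2, Ndufab1, Cox5a, Ndufaf2 and Cyc1), beside 11% of all genes. The median log2 ratio of members was 0.36 and 0.21, above the -0.04 and -0.12 of all genes. Members above 0 were 75 of 85 and 72 of 83, beside 3805 of 7981 and 3399 of 8082 over all genes. Against monocytes or macrophages it was 3 of 83 (Ndufaf1, Atp5sl and Ndufa13), beside 25.2%, with medians of 0.37 and 0.08 beside 0.22 and 0.13. Within dendritic cells, 33 of 84 members were higher in plasmacytoid than in mature cells in both libraries, against 39.4% of all genes, with medians of 0.49 and 0.50 beside 0.52 and 0.48. These comparisons share the CD8 cells or the libraries and are given side by side, not as separate support for one another.

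The 13 mitochondrially encoded subunit genes were ordered differently. They were highest in plasmacytoid cells, at 64936 and 64172 CPM, and in B cells, at 63773 and 62706 CPM, which had the lowest nuclear sum of the 7 classes. CD8 cells held 40264 and 41997 CPM, and mature dendritic cells 25018 and 26702 CPM. Median depths differ between the classes, from 3339 and 3598 UMIs in B cells to 15728 and 13415 in mature dendritic cells, and the part of depth in these orders was not tested. The 39 and 83 neutrophil-gated cells had the lowest nuclear sums, 9249 and 11007 CPM, at median depths of 2454 and 2136 UMIs.

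**Figure D2:**
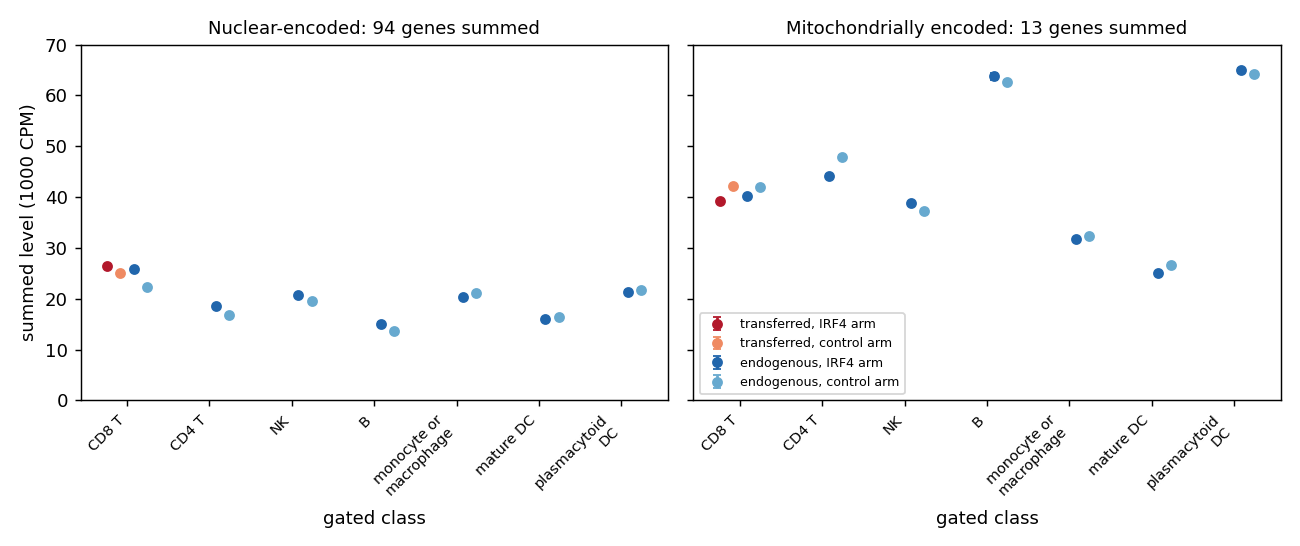
Summed level (1000 CPM, with 95% counting intervals, mostly smaller than the points) of the 94 nuclear genes (left) and the 13 mitochondrially encoded subunit genes (right) by gated class, 1 point per library. Among these 7 classes nuclear genes are highest in CD8 cells and lowest in B cells, while mitochondrially encoded genes are highest in plasmacytoid and B cells.

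Within CD8 T cells the module differed by cell cycle and, as given further on, by depth. Cells with at least 2 of 12 cycle markers after thinning were called cycling, and cells with none non-cycling. Cycling cells made up 29.9%, 19.5%, 30.5% and 12.4% of the CD8 gate. The module stood at 28480, 27673, 28131 and 25957 CPM in cycling cells and at 23145, 22792, 21271 and 19876 CPM in non-cycling ones. Cycling cells were higher in each library, by ratios of 1.23, 1.21, 1.32 and 1.31. The members' median log2 ratio was 0.35, 0.28, 0.44 and 0.43, beside 0.07, 0.04, 0.06 and 0.11 over all genes.

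At a ratio of 1.5, 17, 6, 30 and 30 of 85 members were higher in cycling cells, while 17.4%, 10.8%, 20% and 23.6% of all genes were. In all 4 libraries 6 of 85 were higher, beside 9.15% of all genes, a share close to the background. At the lower ratio of 5 to 4 it was 35 of 85, beside 19% of all genes. The counts at 1.5 were 32, 16, 34 and 37 when thinned and 11, 2, 18 and 18 outside mitochondrial and ribosomal protein genes. Shares of all genes under these 2 settings are not given, so these counts have no background beside them.

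The 6 were Cycs, Cyc1, Uqcr10, Ndufab1, Ndufaf2 and Ndufaf6. Cycs was higher in cycling cells of each library: its CPM was 529 against 275, 538 against 319, 468 against 214 and 413 against 180, ratios of 1.93, 1.69, 2.18 and 2.29. Cyc1, the cytochrome c1 of complex III that hands electrons to Cycs, had ratios of 1.76, 1.57, 1.91 and 1.90. Uqcr10, a small complex III subunit, had 1.59, 1.53, 1.71 and 1.55, and Ndufab1, the mitochondrial acyl carrier protein that is also a complex I subunit, 1.58, 1.57, 2.09 and 2.06. The assembly factor Ndufaf2 had 1.998, 1.65, 1.95 and 2.12. Ndufaf6 rests on few UMIs, 54 in all endogenous control-arm CD8 cells.

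Subunits of one complex did not move alike. In complex II, Sdhb had ratios of 1.42, 1.47, 1.75 and 1.92 and Sdha 1.17, 1.13, 1.14 and 1.15. In ATP synthase the catalytic subunit Atp5b had 1.53, 1.39, 1.72 and 1.73 and its partner Atp5a1 1.45, 1.37, 1.55 and 1.44, while Atp5e had 1.02, 0.99, 1.07 and 1.09 and Atp5h 0.96, 1.08, 1.02 and 0.996. In complex IV, Cox5a had 1.36, 1.37, 1.77 and 1.74 and Cox4i1 0.99, 1.07, 1.12 and 1.13. Ndufv1, the NADH-oxidising subunit of complex I, had 1.72, 1.48, 1.57 and 1.49, and Ndufs1 1.18, 1.21, 1.27 and 0.95.

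Lower in cycling cells past 5 to 4 in all 4 libraries were 3 members, Atp5sl, Ndufa6 and Cox7a2l, beside 10.5% of all genes. Cox7a2l had ratios of 0.58, 0.74, 0.56 and 0.58, and Ndufa6, an accessory complex I subunit, 0.68, 0.73, 0.60 and 0.66. Uqcrh, the hinge protein of complex III, stood at 0.74, 0.82, 0.74 and 0.77. Uqcrh is thus on the other side of 1 from the summed complex III.

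Related lists of genes from the same cells frame this. Glycolysis genes were higher in cycling cells by summed ratios of 1.496, 1.51, 1.82 and 1.92, with 7 of 15, 7 of 15, 9 of 14 and 10 of 14 past 1.5. Tricarboxylic acid cycle genes had 1.45, 1.30, 1.44 and 1.39, with 7, 2, 5 and 7 of 16 past 1.5. Mitochondrially encoded subunits had 1.01, 1.02, 0.86 and 0.86, and cytosolic ribosomal proteins 0.88, 0.87, 0.81 and 0.79.

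Depth moves with the cycle and with the module. Cycling cells had median depths of 38848, 43953, 25159 and 27071 UMIs, non-cycling cells 10894, 12697, 7127 and 7526. From the lowest to the highest of 4 equal groups of CD8 cells by UMIs, the module level went from 19780 to 28421 CPM in transferred IRF4-arm cells and from 17016 to 25139 CPM in endogenous control-arm cells, and every step between groups was upward in each library. Over the same groups the cycling share went from 4.67% to 71.0% and from 1.23% to 44.4%. Among cells of 5000 to 20000 UMIs alone, a window chosen after seeing the data, the module ratio of cycling to non-cycling was 1.18, 1.10, 1.24 and 1.28, from 26, 36, 206 and 25 cycling cells. The part of cell size in the ratio was not tested.

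**Figure D3:**
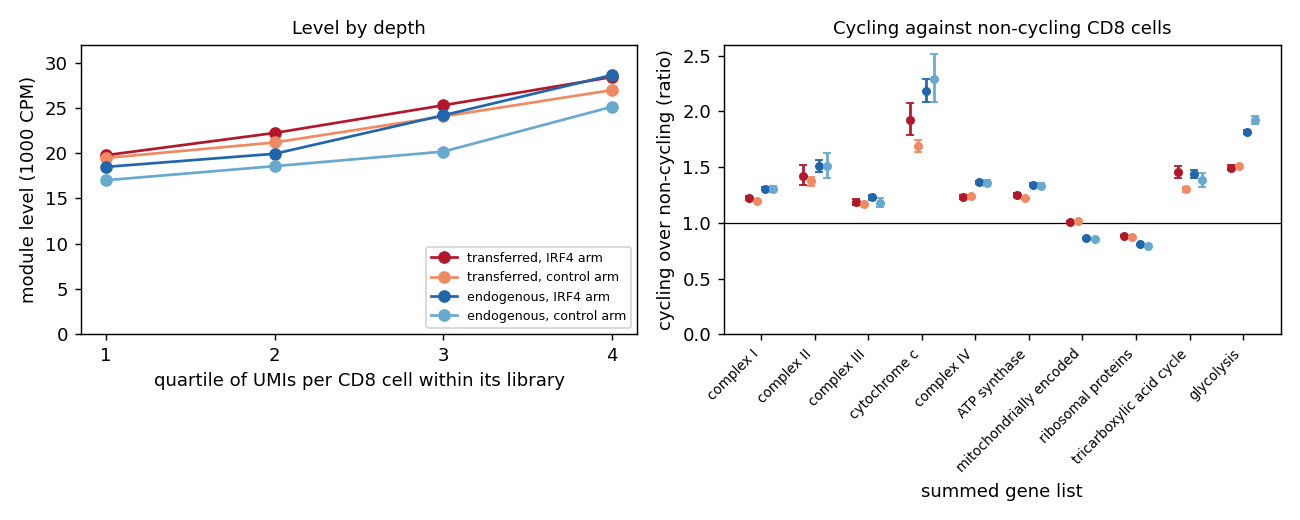
Left, module level (1000 CPM) in 4 equal groups of CD8 cells ordered by UMIs within each library. Right, ratio of summed CPM in cycling over non-cycling CD8 cells for gene lists, with 95% counting intervals. The module level climbs with depth in each library, and the nuclear complexes lie above 1 while mitochondrially encoded and ribosomal protein genes lie at or below about 1.

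Between arms, transferred CD8 cells differed little over the set. The module stood at 26453 CPM in the IRF4 arm (26356 to 26550) and 25114 CPM in the control arm (25067 to 25160), a ratio of 1.05. Of 85 members 55 were above 0 on the log2 scale, beside 3796 of 7422 over all genes. The median was 0.07, beside 0.01 over all genes. At 1.5, 1 member was higher and 0 lower, while 3.5% and 2.56% of all genes were. At 5 to 4 it was 5 and 0, beside 10.3% and 8.8%.

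Atp5k was the 1 member past 1.5. It encodes subunit e of ATP synthase, a small membrane subunit of the stalk region at which the enzyme dimerises. Its level was 310.7 and 140.2 CPM for transferred CD8 cells with IRF4 and with GFP alone, a ratio of 2.22 (2.12 to 2.31), and 204.2 and 121.6 CPM in endogenous ones, a ratio of 1.68 (1.57 to 1.80). Both IRF4-arm libraries were above both control-arm libraries. The other 4 past 5 to 4 in transferred cells were Ndufa3 at 213.7 against 144.2 CPM, Cox7c at 949.5 against 727.5, Cox6a1 at 224.5 against 171.0 and Ndufaf2 at 41.2 against 30.5. Ndufaf2 was on the other side of 1, at 0.944, among cells of 5000 to 20000 UMIs. At the low end were the assembly factors Ndufaf4 (45.6 against 56.5 CPM) and Ndufaf7, with ratios of 0.81 and 0.84, and Atp5g2 at 0.85. Core subunits stayed close to 1: Ndufs1 0.99, Ndufv1 1.04, Sdha 1.02, Uqcrc1 1.08, Cyc1 1.05, Cox4i1 1.04 and Atp5b 1.06.

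Endogenous CD8 cells showed a broader shift between arms, with 79 of 84 members above 0, beside 4176 of 7581 over all genes. The module was 25802 and 22271 CPM, a ratio of 1.16 (1.15 to 1.16). The median log2 ratio was 0.23, beside 0.04 over all genes. At 1.5 only Atp5k was higher and only Cox7a2l lower, beside 4.83% and 4.23% of all genes. The Cox7a2l call ended under 6 alternatives, at 0.69 to 0.77 (thinning, leaving out the 6% of cells with most UMIs, per-cell means, no cycle marker, the depth window and no myeloid marker limit), and the Atp5k call under the 2 given further on. At 5 to 4, 22 members were higher and 2 lower (Cox7a2l and Ndufa6), beside 15.1% and 12.6%.

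The members past 5 to 4 came from every complex. Cycs stood at 375.2 and 262.6 CPM (1.43), Ndufab1 at 214.2 and 154.4 CPM (1.39), Sdhb at 223.2 and 161.2 CPM (1.38) and Uqcr10 at 341.7 and 250.5 CPM (1.36). Complex IV subunits Cox5b, Cox5a and Cox7a2 had ratios of 1.36, 1.35 and 1.34, Ndufa4 1.32, and the complex III core protein Uqcrc1 1.35. In ATP synthase the ring subunit gene Atp5g3 had 1.32 and Atp5b 1.27. By complex the ratio of sums was 1.14 in complex I, 1.2504 in complex II, 1.11 in complex III, 1.21 in complex IV and 1.17 in ATP synthase.

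Cycling shares moved with this difference: the cycling part of endogenous CD8 cells was 30.5% for the IRF4 arm and 12.4% for the control arm. Among cycling cells alone the module ratio between arms was 1.08 and among non-cycling cells 1.07, each with a median log2 ratio of 0.12, beside -0.00034 and 0.04 over all genes. Among cells with no cycle marker detected at any depth it was 1.05. Cox7a2l was at 305.7 against 471.9 CPM in all endogenous CD8 cells, a ratio of 0.65 (0.62 to 0.67), and at 279.6 against 280.8 CPM in transferred ones. Markers of other cells moved with the arms too: all 10 monocyte or macrophage markers were detected in CD8 cells of each library, at summed levels of 19.9, 25.8, 54.6 and 107.7 CPM, and the 5 melanoma markers summed to 4.08, 130.2, 1.96 and 2.07 CPM, with Tyr at 0 in all but the transferred control-arm cells. Their part in the module ratios was not tested. Transferred CD8 cells gave module ratios between arms of 1.03 when cycling and 1.02 when not, and 0.994 with no cycle marker detected at any depth.

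Atp5k was the 1 member of 84 higher past 1.5 in both kinds of CD8 cells, beside 1.26% of all genes. In endogenous cells that call ended among cells with no cycle marker detected, at 1.39, and among cells of 5000 to 20000 UMIs, at 1.48, while in transferred cells the ratio was 1.91 to 2.27 over 12 alternatives. Over 13 gated groups (12 endogenous classes and transferred CD8 cells), its IRF4-arm level was above the control-arm level in 11, with the interval above 1 in 10. The 12 endogenous classes come from 1 pair of libraries, so the groups are not separate support for one another. No share of all genes is given beside these counts. Endogenous B cells had 101.7 and 57.1 CPM, mature dendritic cells 128.7 and 67.9 CPM and CD4 T cells 138.2 and 82.3 CPM. The exceptions were the neutrophil and mast or basophil gates, of 39 and 38 IRF4-arm cells. The haemoglobin difference above lies between the same arms, and its part in the Atp5k values was not tested.

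Cox7a2l had its interval below 1 in 9 of the 13 groups and above 1 in 1, monocytes or macrophages, at 264.0 and 237.6 CPM. Cycs was above 1 in 11 of 13, with the interval above 1 in 9. The counts for Cox7a2l and Cycs rest on the same libraries and also have no share of all genes beside them. Module ratios of the IRF4 over the control arm were 1.11 in CD4 T cells, 1.06 in NK cells and 1.10 in B cells, and 0.96, 0.97 and 0.98 in monocytes or macrophages, mature and plasmacytoid dendritic cells. The smaller gate of type 1 conventional dendritic cells went the other way from the other dendritic gates named, at 24266 CPM in the IRF4 arm against 22371 CPM.

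**Figure D4:**
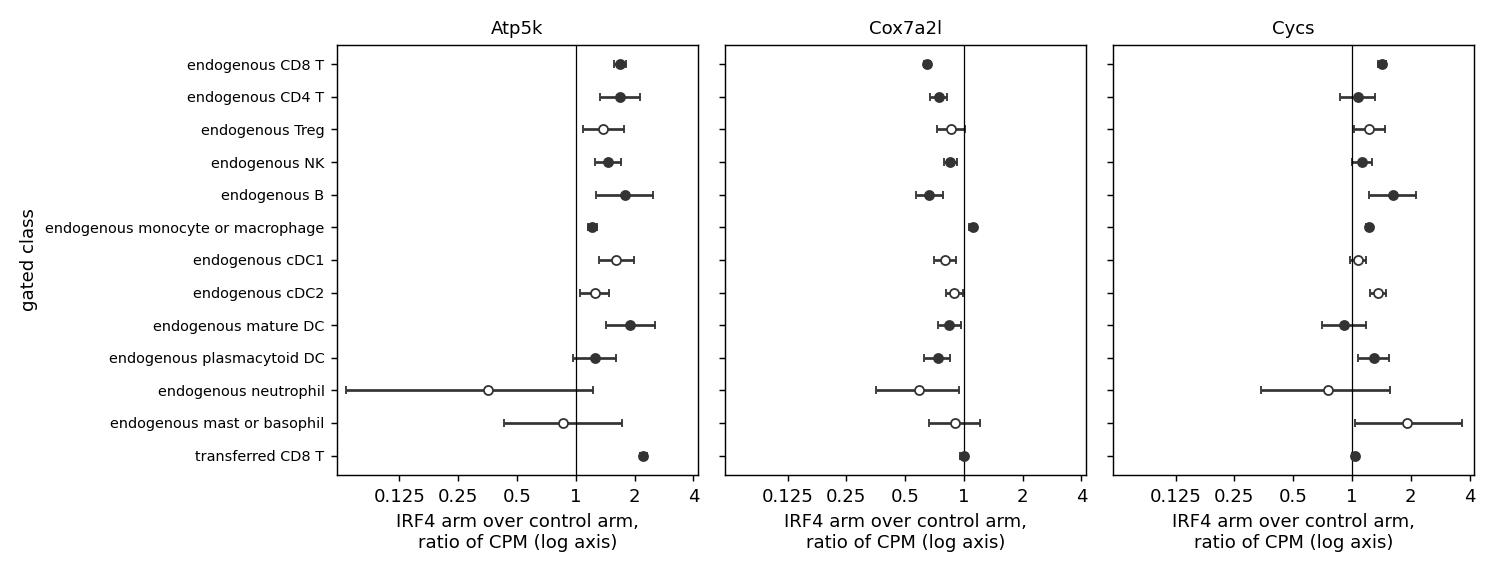
Ratio of CPM in the IRF4 arm over the control arm (log axis, 95% counting intervals) for Atp5k, Cox7a2l and Cycs in 13 gated groups; open points are groups with too few cells to be ranked. Atp5k lies above 1 in 11 groups, Cox7a2l above 1 in monocytes or macrophages alone and Cycs above 1 in 11. The endogenous groups all come from the same libraries.

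Transcript length went with the difference between arms among members, and over all genes by rank in endogenous CD8 cells only. Atp5k has a median annotated transcript length of 321.5 bases and Ndufa3 of 433 bases. In transferred CD8 cells the 10 members of at most 500 bases had a median log2 ratio of 0.14 and the 75 longer ones 0.06. Across the 85 members Spearman's rho of length with log2 ratio was -0.37, beside -0.0031 over 7326 genes. In endogenous CD8 cells rho was -0.24 over members and -0.22 over 7476 genes. Genes are not replicates, the points share 2 libraries, and the part of length in the Atp5k ratio was not tested. Of related small transcripts outside the set, mt-Atp8 stood at 95.5 and 55.1 CPM and mt-Nd3 at 800.7 and 416.5 CPM in transferred cells, the 2 of 13 mitochondrially encoded subunit genes past 1.5. The 13 together stood at 39245 and 42277 CPM, a ratio of 0.928, with 8 of 13 below 0 and a median log2 ratio of -0.046. Usmg5, a small accessory subunit of ATP synthase, stood at 270.4 and 176.5 CPM. The small transcripts named here are ones past 1.5, chosen with their values seen. Other short transcripts of the same lists are not given, so these examples do not bear on length.

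Transferred against endogenous CD8 cells differed more within the control arm than within the IRF4 arm. In the control arm the module was 25114 against 22271 CPM, a ratio of 1.13. There 68 of 85 members were above 0, beside 3481 of 7697 over all genes, with a median of 0.20 beside -0.05. At 1.5, 9 members were higher and 1 lower, beside 8.19% and 12.8% of all genes, and at 5 to 4 it was 21 and 2, beside 18.9% and 25.4%. In the IRF4 arm the module was 26453 against 25802 CPM, a ratio of 1.03. There 39 of 85 members were above 0, beside 3123 of 7512 over all genes, with a median of -0.02 beside -0.07. At 1.5, 4 were higher and 0 lower, beside 5.67% and 10%, and at 5 to 4 it was 11 and 1, beside 13.2% and 23%. The difference between the arms was not tested, and receptor, origin and transduction differ together between the cells compared.

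The 9 higher members of the control arm, a share near that of all genes, are named with their values. Complex III held Uqcr10 (448.4 against 250.5 CPM, 1.79), Uqcrq (402.6 against 247.1, 1.63) and Uqcr11 (253.5 against 161.4, 1.57), all small accessory subunits. Its core proteins Uqcrc1 and Uqcrc2 had 1.12 and 1.07. Cycs was at 416.1 against 262.6 CPM (1.58). Complex I gave Ndufab1 (266.2 against 154.4 CPM, 1.72) and Ndufa5 (147.7 against 96.7, 1.53), and the assembly factors gave Ndufaf6 (18.8 against 6.97, 2.70), Ndufaf4 (56.5 against 31.0, 1.82) and Ndufaf2 (30.5 against 19.5, 1.56). The 1 lower member was Cox7a2l at 280.8 against 471.9 CPM (0.60).

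In the IRF4 arm the 4 higher members were Ndufaf6 (17.2 against 9.97 CPM, 1.72), Ndufaf2 (41.2 against 26.8, 1.53), Cox7c (949.5 against 619.8, 1.53) and Atp5k (310.7 against 204.2, 1.52). Ndufaf6 and Ndufaf2 were the 2 of 85 higher past 1.5 in both arms, beside 3.42% of all genes. In the IRF4 arm the Ndufaf6 ratio turned to 0.987 when thinned, and it was 1.08 to 1.44 in the depth window, with no cycle marker, by per-cell means and in a stricter marker gate. Ndufaf2 was at 1.28 in the depth window and 1.45 in the stricter gate there. Ndufaf3 stood lowest in the IRF4 arm at 30.1 against 43.1 CPM (0.70), and in the control arm at 28.6 against 42.1 CPM. Among cells of 5000 to 20000 UMIs the module ratio was 1.04 in the control arm and 0.9996 in the IRF4 arm, with 4 and 2 members higher past 1.5. The control-arm count of 9 was 14 outside mitochondrial and ribosomal protein genes, 14 without the 6% of cells with most UMIs and 15 with no cycle marker detected. Shares of all genes under these settings and in the depth window are not given.

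**Figure D5:**
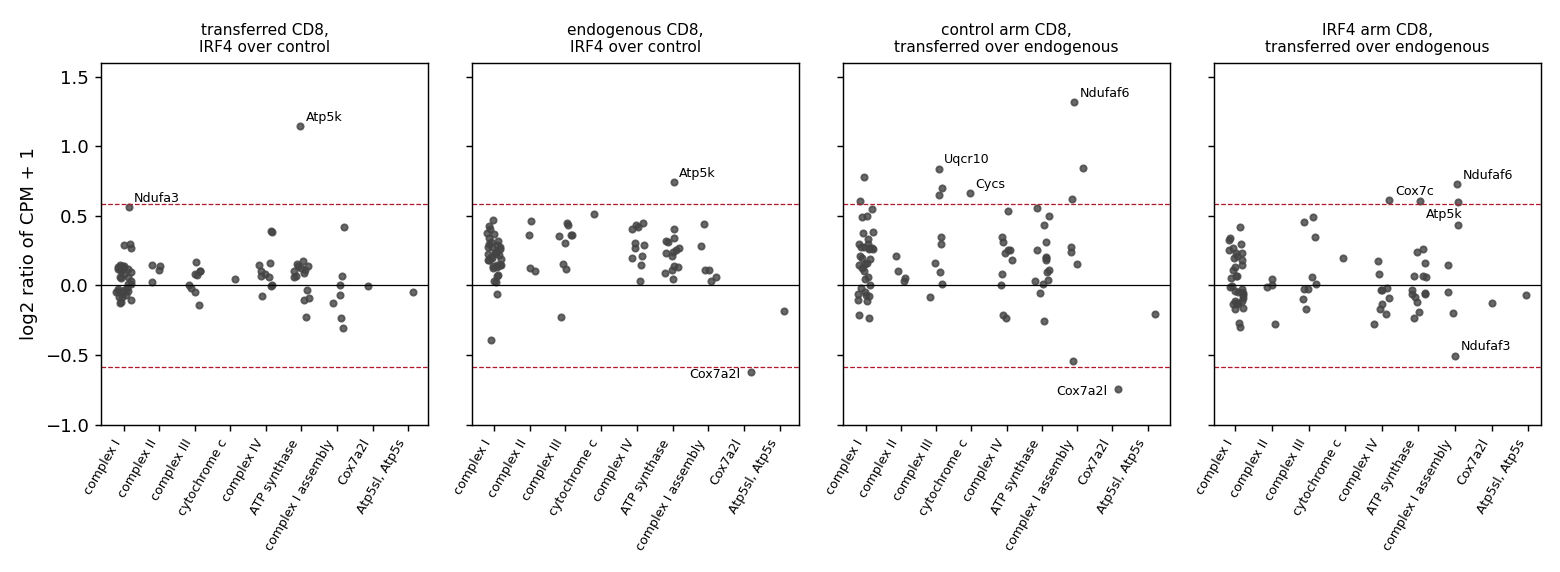
Log2 ratio of CPM (1 CPM added) for each measured member, by complex, in the 4 comparisons of CD8 cells; dashed lines mark ratios of 1.5 in either direction. In endogenous cells most members lie between 0 and the upper line, and Atp5k is the 1 member above that line in both comparisons between arms.

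Outside the set, genes of the same pathway moved as follows in these comparisons. Of 33 or 34 measured other assembly factors, 0 passed 1.5 between arms in either direction. Of all genes 3.5% were higher and 2.56% lower in transferred cells, and 4.83% and 4.23% in endogenous ones. In a list this small, 0 is near these shares. In the control arm 3 of 33 were higher in transferred cells and 0 lower, beside 8.19% and 12.8% of all genes. The 3, a share near that of all genes, included Sdhaf1 at 71.6 against 34.7 CPM and Tmem70, which builds ATP synthase, at 61.7 against 32.4 CPM. In the IRF4 arm 1 of 34 was higher and 1 lower, beside 5.67% and 10%. Among biogenesis regulators Myc was at 53.9 CPM in IRF4-arm and 95.4 CPM in control-arm transferred cells and at 28.5 and 32.02 CPM in endogenous ones. Of carriers and coupling factors, Vdac1 was at 190.5 against 108.4 CPM in transferred over endogenous control-arm cells and at 210.4 against 139.7 CPM in the IRF4 arm. Glycolysis genes summed to 8948 and 7719 CPM in transferred and to 8623 and 6822 CPM in endogenous cells of the IRF4 and control arms, and none passed 1.5 between arms. Tricarboxylic acid cycle genes had arm ratios of 1.05 and 1.18, with 0 of 16 past 1.5. For glycolysis and tricarboxylic acid cycle genes too, 0 is near the shares of all genes between arms given above.

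The start sites of members were read for the core motif of NRF1, a factor known to bind promoters of respiratory chain genes. RefSeq windows of 250 bases before to 50 after the start (GRCm38.p6) were matched for 74 of the 94 members. The core GCGCATGC was found on either strand in 13 of 74 (17.6%), beside 3.05% of 27025 genes. This short core was taken after a longer form of the motif had been searched and its matches seen, and the longer form was found in fewer windows. The 13 were Atp5g2, Atp5k, Atp5l, Cox6a1, Cycs, Ndufa6, Ndufa8, Ndufa11, Ndufaf4, Ndufaf5, Sdhb, Uqcr11 and Uqcrc1. Sites of 6 of them are shown because their levels are described above, with the match in capitals and its flanks in lower case; GCATGCGC is the same core read from the other strand.
Atp5k, chr5:108434431-108434460, minus strand: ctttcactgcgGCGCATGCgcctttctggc
Cycs, chr6:50566611-50566640, minus strand: catgctagctcGCATGCGCgcgcacaaacc
Ndufa6, chr15:82354356-82354385, minus strand: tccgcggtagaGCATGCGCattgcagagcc
Ndufaf4, chr4:24897959-24897988, plus strand: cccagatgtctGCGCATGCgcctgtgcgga
Sdhb, chr4:140961206-140961235, plus strand: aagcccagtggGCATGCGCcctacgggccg
Uqcr11, chr10:80406807-80406836, minus strand: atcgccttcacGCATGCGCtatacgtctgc

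The matches shown begin 50 bases before the start in Atp5k, 60 in Cycs, 83 in Ndufa6, 113 in Ndufaf4, 54 in Sdhb and 4 in Uqcr11. Another match in Ndufaf4 begins 1 base after the start. Between arms in transferred CD8 cells the ratio was 2.22 in Atp5k and 0.81 in Ndufaf4, and in cycling cells Cycs was higher and Ndufa6 lower in all 4 libraries. The genes shown were picked for levels already described, so these differences follow from the choice. They do not describe all members with a match, and a common influence was not tested. Of other motifs read on both strands, the ETS-type CCGGAAG was found in 17 of 74 windows (23.0%), beside 9.93% of all genes, the YY1 motif AAGATGGC in 9 (12.2%), beside 3.19%, and TATAAA in 7 (9.46%), beside 15.7%. A match is a description of letters, and binding was not measured here.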

How the data were processed

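Single-cell 3' libraries were deposited by the authors as matrices of whole UMI counts per gene and cell. Cell Ranger 3.0.2, STAR 2.6 and mm10 are named per the submitters' processing notes, and the sources used here do not give the annotation. One protocol speaks of a nuclear suspension although cells were sorted.

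Barcodes with at least 1000 UMIs, 500 genes and at most 10% mitochondrial UMIs were kept. Cells were gated on markers (at least 3, and at most 2 monocyte or macrophage markers in lymphoid gates). The scoring rule was set after seeing the data. No doublet caller was run, and an alternative leaves out the 6% of cells with most UMIs. Counts were summed per library and class and scaled to CPM. Genes at 10 CPM or more were called past ratios of 1.5 or of 5 to 4 with 1 CPM added. Intervals are 95% exact Poisson for levels, exact conditional binomial for ratios and Clopper-Pearson for shares, and cover counting error only. PCR duplicates are removed by UMIs. Shares were thinned to 2000 UMIs. A count of 0 is given the limit of 3 counts. No p-value was computed, since each group is 1 library.

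Members named are 14 fixed genes, the 5 highest and 5 lowest at 50 CPM and 20 UMIs or more (the extremes are described in part), every member past 1.5 between arms or cell kinds or in all 4 libraries by cycling, tissue-restricted forms and class-restricted members; others were chosen after their values were seen. Members and lists were chosen with earlier results of these data known. Coordinates are from GENCODE vM21 and promoter windows from RefSeq. Calls were tested on simulated data. Python 3.11.15, numpy 2.4.6, scipy 1.17.1, pandas 2.3.3 and matplotlib 3.10.9 were used.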

Additional observations from a re-analysis of the deposited data

Results flagged for a closer look

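The module ratio of the IRF4 over the control arm was 0.963 in endogenous monocytes or macrophages, 0.974 in mature dendritic cells and 0.981 in plasmacytoid dendritic cells, on the other side of 1 from the 1.16 of endogenous CD8 cells. The difference between the classes was not tested, since each rests on 1 library per arm.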

How the results depend on the processing

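No paired analysis was possible because each group is 1 library and no test was made. Ratios are given in the order transferred IRF4 over control (1.05 as reported), endogenous IRF4 over control (1.16), and transferred over endogenous in the control arm (1.13) and in the IRF4 arm (1.03), and a value that stayed within its counting interval is left out. Outside mitochondrial and ribosomal protein genes the module ratios were 1.01, 1.10, 1.20 and 1.10, with 14 members higher in the control arm. With median-ratio size factors the last 3 were 1.13, 1.17 and 1.07. Thinned to 2000 UMIs they were 1.04, 1.13, 1.14 and 1.05, with 2 higher and 2 lower between arms in transferred cells, 3 and 0 in endogenous ones, and Ndufaf6 at 0.987 in the IRF4 arm. Without the 6% of cells with most UMIs they were 1.03, 1.11, 1.16 and 1.08, with 0 lower in endogenous cells and 14 higher in the control arm. By the mean of per-cell CPM they were 1.04, 1.13, 1.14 and 1.05, with 0 lower in endogenous cells and 2 higher in the IRF4 arm. A stricter gate gave 1.07 in transferred cells with 2 higher and 1 lower, 1.09 in the control arm, and 1.01 in the IRF4 arm with 2 higher. With no cycle marker detected they were 0.994, a change of direction, 1.05, 1.15 and 1.09, with 1 lower in transferred cells, 0 higher and 0 lower in endogenous ones, 15 higher in the control arm and 1 lower in the IRF4 arm. Without the mitochondrial limit they were 1.06 in transferred cells and 1.12 in the control arm. A minimum of 50 CPM left 2 higher in the IRF4 arm and a minimum of 1 UMI gave 1 lower. At a call of 5 to 4 the counts higher were 5, 22, 21 and 11, and those lower 2, 2 and 1 in the last 3 comparisons.

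The following were chosen after seeing the data. Among cells of 5000 to 20000 UMIs the module ratios were 1.04, 1.09, 1.04 and 0.9996, the last on the other side of 1. There 3 members were higher and 2 lower in transferred cells, 0 and 0 in endogenous ones, 4 higher in the control arm and 2 in the IRF4 arm, and Ndufaf2 was at 0.944 in transferred cells. Without the myeloid marker limit they were 1.12 in the control arm and 1.02 in the IRF4 arm, with 0 lower between arms in endogenous cells. Cycling over non-cycling ratios in the 4 libraries were 1.18, 1.10, 1.24 and 1.28 among cells of 5000 to 20000 UMIs, 1.247, 1.248, 1.36 and 1.37 thinned, 1.17, 1.18, 1.27 and 1.21 with size factors and 1.16, 1.13, 1.21 and 1.18 outside mitochondrial and ribosomal protein genes, all above 1. Members higher in cycling cells (17, 6, 30 and 30 as reported) were then 12, 1, 12 and 21, 32, 16, 34 and 37, 11, 4, 25 and 19, and 11, 2, 18 and 18 in the same order of settings. The cause of these changes was not tested. Member counts under the alternative settings are given without the share of all genes beside them, and that share may move as well. With 1 library per group, no value here carries the spread between animals.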
